A study of Mus musculus with 10 samples.

Results

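Of the 2335 regions called as Ring1b peaks in mouse embryonic stem cells (ESCs), 831 shared no base with a Cbx2, Ezh2 or H3K27me3 peak called in the same cells. These Ring1b-only peaks were selected on the overlap of the 4 ESC peak lists, so their lack of the other 3 marks is the rule and not a result. They covered 1.50 Mb of the 7.90 Mb under all ESC Ring1b peaks. The other 1504 Ring1b peaks overlapped H3K27me3 only (546), H3K27me3 and Ezh2 (468), H3K27me3, Ezh2 and Cbx2 (371) or another combination (119). The study mapped Polycomb proteins by chromatin immunoprecipitation and sequencing (ChIP-seq) in J1 ESCs, a wild-type line grown on inactivated feeder cells in serum with LIF and depleted of feeders before use. The second cell type was neural stem cells (NSCs) derived in vitro from the same J1 line and grown with EGF and FGF. Each peak list used here (Ring1b, Cbx2, Ezh2 and H3K27me3 in ESCs, Ring1b and H3K27me3 in NSCs) came from 1 library, so no value below has a replicate error. Per the study's methods, the cells for Ring1b received a protein-protein crosslinker (EGS) before formaldehyde while the other targets received formaldehyde alone. The sample titles also name a separate input for Ring1b in each cell type. The part of these differences in the overlaps was not tested. The lists hold positions only, with no height or read count, so the depth behind a peak is unknown. A missing Cbx2, Ezh2 or H3K27me3 peak means that none was called, not that the protein or mark was absent.

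Ring1b (Rnf2) is the E3 ubiquitin ligase of Polycomb repressive complex 1 (PRC1), which places ubiquitin on histone H2A. Polycomb repressive complex 2 (PRC2) holds Ezh2, the methyltransferase that places H3K27me3. Canonical PRC1 contains a Cbx protein such as Cbx2, which reads H3K27me3 and can compact chromatin. Variant PRC1 complexes lack a Cbx protein of this kind and reach chromatin by other DNA-binding subunits. Cbx2 was the only Cbx protein among the lists used here, while the study's methods also name Cbx7 for its Polycomb targets in ESCs. A Ring1b-only peak is therefore not shown to lack canonical PRC1, and which form of PRC1 lay there was not tested. The variant built on Pcgf6 holds the Mga and Max pair, which reads E-boxes, and the E2f6 and Dp1 pair, and is known in ESCs for keeping germline genes silent. Polycomb peaks in mammals usually lie over CpG islands, stretches that have kept their CpG dinucleotides.

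The stretches below show the DNA under Ring1b-only peaks at germline genes and at 1 PRC1 subunit gene, because these genes recur in the results. Only genes with an E-box in the peak are shown, so the stretches do not tell how common it is. Smc1b, the germline gene left out, had none in its peak. The PRC1 genes E2f6 and Mga, whose nearest E-boxes lay further from the start, are not shown either. Sequences are from the mm9 assembly (NCBIM37) and are written 5′ to 3′ on the gene's strand, with E-boxes (CACGTG) in capitals. The first 4 are the 150 bases directly upstream of the annotated start of Hormad1 (chr3:95363449-95363598, plus strand), Slc25a31 (chr3:40512627-40512776, plus), Tdrd1 (chr19:56900549-56900698, plus) and Bcorl1 (chrX:45694385-45694534, plus). The first bases at Tdrd1 lie just outside its peak.
Hormad1: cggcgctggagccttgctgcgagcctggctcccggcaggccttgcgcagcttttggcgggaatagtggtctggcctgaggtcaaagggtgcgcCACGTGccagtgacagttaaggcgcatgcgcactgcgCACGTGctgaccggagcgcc
Slc25a31: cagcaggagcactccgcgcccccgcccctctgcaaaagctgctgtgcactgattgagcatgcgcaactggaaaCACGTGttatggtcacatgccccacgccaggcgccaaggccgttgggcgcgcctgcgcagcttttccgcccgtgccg
Tdrd1: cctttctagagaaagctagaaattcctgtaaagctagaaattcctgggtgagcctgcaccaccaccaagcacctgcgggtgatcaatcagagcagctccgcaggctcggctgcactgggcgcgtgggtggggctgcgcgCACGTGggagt
Bcorl1: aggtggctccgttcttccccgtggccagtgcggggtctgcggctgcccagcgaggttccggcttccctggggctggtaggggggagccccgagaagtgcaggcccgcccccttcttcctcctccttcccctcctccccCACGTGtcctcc
In Stag3 (chr5:138721555-138721584, plus), Syce2 (chr8:87396057-87396086, plus), Piwil2 (chr14:70828746-70828775, minus) and Sycp2 (chr2:178142738-178142767, minus) the E-box nearest the start lay outside the upstream 150 bases, and 30 bases around it are shown.
Stag3: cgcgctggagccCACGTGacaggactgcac
Syce2: cgtttcattcagCACGTGctcggggcgggg
Piwil2: tccggcacagtcCACGTGgtggaaaggtac
Sycp2: tttaactctcttCACGTGaagccatggagt

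The last pair shows the range of CpG content among the 831 peaks, with each CpG in capitals on the plus strand. It gives the central 150 bases of the peak at Zdbf2 (chr1:63320426-63320575), whose whole-peak CpG ratio was the highest at 1.09, and of the peak nearest to Htr1f (chr16:65295326-65295475), which held no CpG at all. The first stretch held 10 CpGs and the second held 0.
Zdbf2: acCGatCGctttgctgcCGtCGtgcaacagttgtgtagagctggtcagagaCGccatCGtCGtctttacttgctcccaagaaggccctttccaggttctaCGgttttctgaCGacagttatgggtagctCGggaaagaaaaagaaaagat
near Htr1f: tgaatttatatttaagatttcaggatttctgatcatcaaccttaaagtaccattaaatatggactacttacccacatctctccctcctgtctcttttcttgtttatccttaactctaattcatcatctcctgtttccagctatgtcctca

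Ring1b-only peaks were narrow. Their median width was 1600 bp (quartiles 1200 and 2000 bp), against 2800 bp (2000 and 4400 bp) for the other ESC Ring1b peaks. Median width was 2000 bp with H3K27me3 only, 2800 bp with H3K27me3 and Ezh2, and 7000 bp with all 4 lists. All peaks were built from 1 kb windows, so 1000 bp is the smallest width the calling allows. That floor held 139 Ring1b-only peaks (16.7%, exact 95% interval 14.3 to 19.4%) and 51 of the others (3.39%, 2.54 to 4.43%). A wide Ring1b peak has more bases in which to meet another peak, so a difference in width between the classes is in part fixed by the rule and is given without a test. Only 24 Ring1b-only peaks reached 4 kb.

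**Figure D1:**
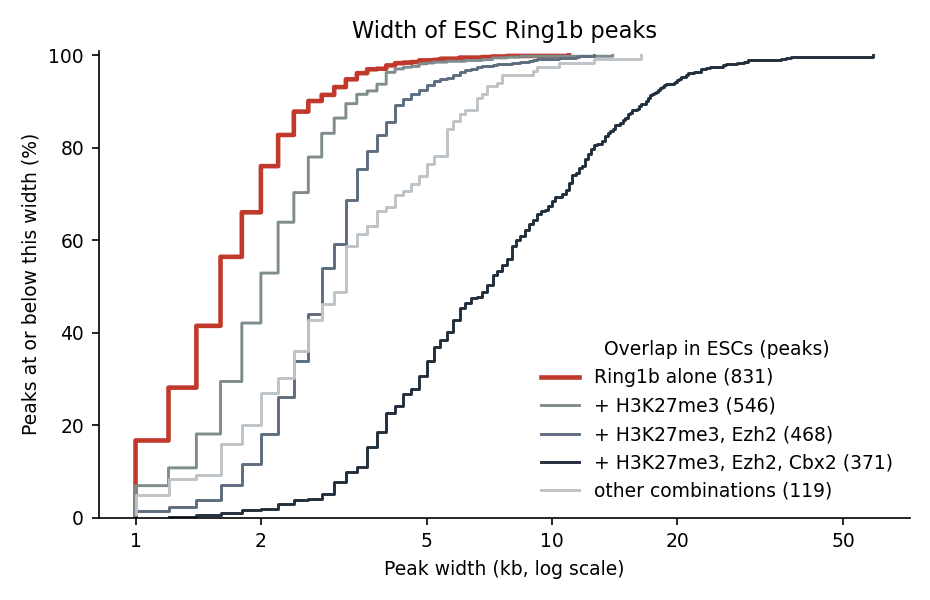
Cumulative share (%) of ESC Ring1b peaks at or below each width (kb, log scale), with 1 line for each combination of overlapping ESC lists and the number of peaks in brackets. The line of the 831 Ring1b-only peaks lies furthest left, with a median of 1600 bp, and that of the 371 peaks with all 4 lists furthest right, with a median of 7000 bp.

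The widest Ring1b-only peak, of 11000 bp, was at Tnrc18 (chr5:143574801-143585800), which overlapped a 1400 bp NSC Ring1b peak. The peak at Lmo4, a LIM-only transcriptional cofactor, measured 7800 bp (chr3:143860401-143868200) and lay 2015000 bp from the nearest peak of the other 3 ESC lists. Tcfap2c, the AP-2 gamma transcription factor gene of trophoblast and germ cells, carried 7200 bp (chr2:172371001-172378200). Bcorl1, a Bcor-like subunit of variant PRC1, carried 6800 bp (chrX:45693201-45700000). A peak of 6000 bp lay outside start sites, 2889 bp from Gsx2, a homeobox gene of the developing forebrain. It was only 1200 bp from a peak of another ESC list, while the 4 named before it lay 395000, 2015000, 97800 and 106400 bp away.

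Most Ring1b-only peaks were at genes, but less often than the rest. A protein-coding start site lay within 1 kb of 534 (64.3%, 60.9 to 67.5%), against 1132 of the other 1504 (75.3%, 73.0 to 77.4%) and 71.3% of all ESC Ring1b peaks. The difference of -11.0 percentage points passed Fisher's exact test (two-sided, adjusted p = 2.73e-08, Benjamini-Hochberg over 4 shares). Peaks of 1 library are not independent replicates, so this and the tests below compare groups of peaks in these libraries and not cell populations. Against the peaks with H3K27me3 only, 69.6% of which were at a start site, the difference was -5.34 points and missed the threshold (adjusted p = 0.0552, Fisher's exact test). Among peaks of 1000 to 2200 bp the difference was -7.23 points (adjusted p = 0.0121), and among wider peaks -13.5 points (adjusted p = 0.00107, both by Fisher's exact test). In each finer width class the share was lower in Ring1b-only peaks, but the intervals overlapped. At 1600 to 2200 bp it was 69.1% (63.9 to 73.9%) against 71.6% (66.9 to 76.1%). A start site lay inside 415 Ring1b-only peaks (49.9%) and within 5 kb of 591 (71.1%). With starts of every annotated transcript counted, non-coding ones included, 638 (76.8%) had one within 1 kb.

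Where a start site lay inside the peak, the peak's centre was a median of 300 bp downstream of it, and in 316 of these 415 peaks (76.1%) it was on the transcribed side. Only 31 Ring1b-only peaks held 2 or more protein-coding starts. A divergent pair of starts, on opposite strands and within 1 kb, was found in 15 (1.81%, 1.01 to 2.96%), against 11 of the other peaks (0.731%, 0.366 to 1.30%). Peak centres fell in an exon of a protein-coding gene in 317 (38.1%), in an intron of one in 255 (30.7%) and outside protein-coding genes in 259 (31.2%). The other Ring1b peaks had 22.7% of their centres outside protein-coding genes. No protein-coding start site lay within 5 kb of 240 Ring1b-only peaks. Of these, 78 (32.5%) had some annotated transcript start within 1 kb. Wide ones among the 240 were near Slc38a10 (4800 bp, 33941 bp away), Kif13b (4800 bp, 61639 bp away), Odz4 (4000 bp, 37647 bp away) and 6530409C15Rik (3800 bp, 44246 bp away).

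Ring1b-only peaks covered the start sites of 446 of 22208 protein-coding genes, or 2.01%, the background for the gene lists that follow. Germline and meiosis genes stood above that level, with 8 of 55 annotated list genes (14.5%) in a Ring1b-only peak. Of the 14 germline genes in any ESC Ring1b peak, 8 (57.1%) were in Ring1b-only peaks, 5 in peaks with H3K27me3 only, 1 in a peak with H3K27me3 and Ezh2, and 0 in peaks with all 4 lists. Over all genes in an ESC Ring1b peak, 28.5% were in Ring1b-only peaks. Peaks with H3K27me3 only held 5 of the 55 list genes and 340 of all 22208 genes, so that class stood above its background as well. The 8 genes were Stag3 and Smc1b (meiotic cohesin subunits), Sycp2 and Syce2 (synaptonemal complex), Hormad1 (meiotic chromosome axis), Piwil2 and Tdrd1 (piRNA pathway) and Slc25a31 (a mitochondrial carrier of male germ cells). Their peaks were 1000 to 2000 bp wide, narrowest at Tdrd1 and widest at Stag3. Sycp2 was the nearest of the 8 to a peak of another ESC list, at 4400 bp, and Stag3 the furthest, at 507800 bp. Only Stag3 of the 8 also had an NSC Ring1b peak over the same region, and none had an NSC H3K27me3 peak. No test was made on these lists, which were chosen with earlier results of these data known.

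The few genes for PRC1 subunits with a start site in an ESC Ring1b peak fell into 2 classes. Of 31 on the list, 7 had a start site in an ESC Ring1b peak, of which 4 were in peaks with all 4 lists and 3 in Ring1b-only peaks. The 3 were Bcorl1, E2f6 and Mga, and all encode subunits of variant complexes. Canonical and variant subunits were not counted apart on the list, so this has no background share. The peak at E2f6 measured 2400 bp (chr12:16816801-16819200) and the peak at Mga 2000 bp (chr2:119722401-119724400), and only Mga had an NSC Ring1b peak there as well. A second Ring1b-only peak of 2000 bp lay 23164 bp from the Mga start site, named after its values were seen, and it too overlapped an NSC Ring1b peak. None of the 11 PRC2 subunit genes had a start site in a Ring1b-only peak, and 1 had one in another Ring1b peak.

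Developmental transcription factor genes, the best known Polycomb targets, were mostly elsewhere. Of 196 such genes, 141 (71.9%) had a start site in an ESC Ring1b peak, of which 104 were in peaks with all 4 lists and 6 in Ring1b-only peaks. The 6 made up 3.06% of the list, near the 2.01% of all genes. They were Zic5 (a zinc finger factor of the neural tube), Neurog3 (endocrine pancreas), Irx6 (Iroquois family), Foxo6 (forkhead family), Sox30 (male germ cells) and Pou6f1 (POU family). Neurog3 and Irx6 each lay 1600 bp from a peak of another ESC list, and Zic5 and Foxo6 lay 9200 and 17600 bp away. The peaks at Pou6f1 and Sox30 were 444800 and 1358400 bp away. Foxo6 was the only one of the 6 with an NSC peak, of H3K27me3.

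Among genes of the Wnt, Fgf, Bmp, Gdf and hedgehog families, 4 of 65 (6.15%) were in Ring1b-only peaks and 36 in any ESC Ring1b peak. The 4 were Fgf13, Fgf15, Wnt2 and Wnt9b, and Fgf15, a hormone of bile acid control, had an NSC H3K27me3 peak as well. Of 94 cell cycle genes, 4 were in Ring1b-only peaks, namely Cdkn2a (the Ink4a and Arf inhibitors), Cdk6 (a G1 kinase), E2f6 and Cdc42ep3, which the list took in by its name and which binds the GTPase Cdc42. Of 340 Zfp genes, mostly C2H2 zinc finger proteins, 4 (1.18%) were covered, namely Zfp467, Zfp711, Zfp623 and Zfp692. One of 65 translation factor genes was covered, Eef2k, the kinase of elongation factor 2.

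Several other lists had no gene in the Ring1b-only peaks. None of 76 cytoplasmic ribosomal protein genes, 75 mitochondrial ribosomal protein genes, 67 histone genes, 62 splicing genes or 39 proteasome genes had a start site in one. At the 2.01% of all genes, lists of this size would hold very few, and the ribosomal, histone and splicing lists had no gene in any ESC Ring1b peak. None of 23 pluripotency genes, 24 immediate early genes or 1087 olfactory receptor genes had a start site in a Ring1b-only peak either. Counting any ESC Ring1b peak, 2 pluripotency genes, 6 immediate early genes and 0 olfactory receptor genes had one. The labelled cell types could be checked only through peaks at marker genes, since the lists hold no expression. None of 8 ESC markers had an ESC Ring1b or H3K27me3 peak, while 1 had an NSC H3K27me3 peak. Of 7 NSC markers, 4 had an ESC Ring1b peak, 3 an ESC H3K27me3 peak and 0 an NSC peak of either kind. Of 8 fibroblast markers, which would be silent in ESCs but active in feeder cells, 1 had an ESC Ring1b peak, one that carried all 4 lists.

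The Ring1b-only peaks were rich in G, C and CpG. Their median GC content was 58.8% (quartiles 55.0 and 62.4%) against 58.1% (54.5 and 61.1%) for the other Ring1b peaks. The CpG ratio, the number of CpGs observed over that expected from the C and G content, had a median of 0.665 (0.566 and 0.766) against 0.634 (0.558 and 0.712). Whole peaks of different width are hard to compare, since wide peaks take in flanking DNA. In the central 1 kb the medians were 61.8% GC and a ratio of 0.722, against 63.1% and 0.738. The 371 peaks with all 4 lists had lower values there, 56.7% and 0.648. Among Ring1b-only peaks, those with a start site within 1 kb had a median CpG ratio of 0.698 and the other 297 had 0.596.

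**Figure D2:**
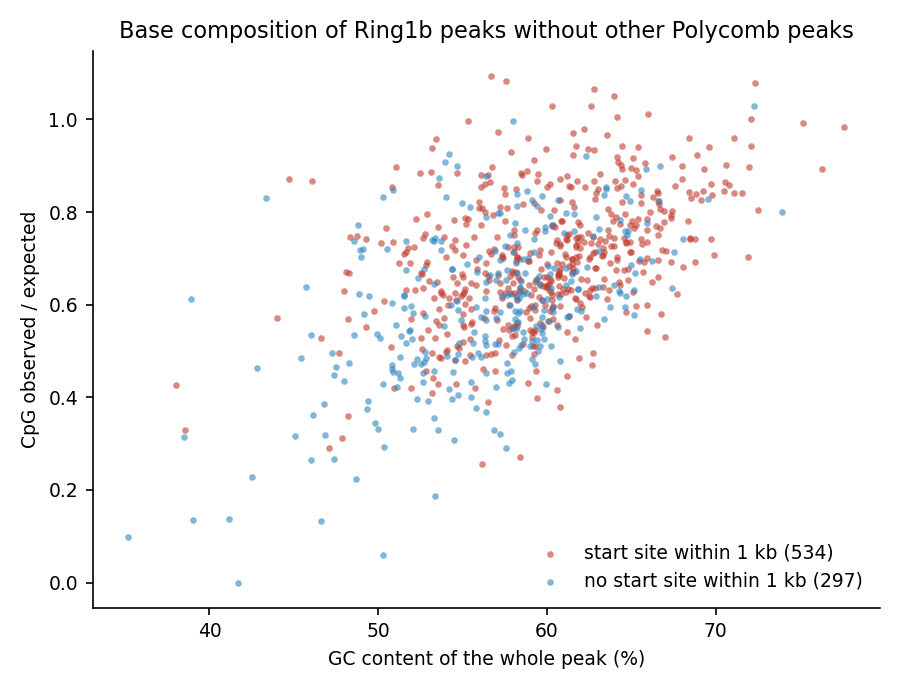
Each point is 1 of the 831 Ring1b-only peaks, placed by the GC content of the whole peak (%) and by its CpG observed/expected ratio. Peaks with a start site within 1 kb (534, red) have a median ratio of 0.698 and those without (297, blue) 0.596, and the points below 0.2 are all blue.

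A CpG island window (500 bp with at least 55% GC and a CpG ratio of at least 0.65) was found in 735 Ring1b-only peaks (88.4%, 86.1 to 90.5%). The share was 96.9% (95.9 to 97.8%) of the other Ring1b peaks and 93.9% of all. The difference of -8.49 points passed the test (adjusted p = 2.94e-15, Fisher's exact test). In the central 1 kb alone the direction against all others was turned, with 83.9% of Ring1b-only peaks and 80.1% of the others holding such a window (adjusted p = 0.0228, Fisher's exact test). There the share was 60.9% with all 4 lists but 88.1% with H3K27me3 only and 89.3% with H3K27me3 and Ezh2, both above the Ring1b-only peaks. Among Ring1b-only peaks of the smallest width, 1000 bp, the share was 78.4%, and among those of 1600 to 2200 bp it was 93.0%. The 3 peaks with the least CpG lay far from any protein-coding start site, 189191 bp from Htr1f (ratio 0), 324827 bp from Tmco5 (0.0599) and 149248 bp from Osr1 (0.0979). The 3 with the most were at Zdbf2 (1.09), at the divergent genes Sart3 and Iscu (1.08) and 43 bp from 2410016O06Rik (1.08).

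Motifs were counted in the central 1 kb of each peak, beginning with the E-box. The motif CACGTG, a palindrome, occurred in 218 of 831 (26.2%, 23.3 to 29.4%). The share was 21.2% of peaks with H3K27me3 only, 16.7% with H3K27me3 and Ezh2, and 11.3% with all 4 lists, or 17.1% (257 peaks) of the other 1504 together. As a background, 17.0% of 22350 windows of 1 kb around protein-coding starts held it, and 22.0% of the 11235 such windows with a CpG island. Restricted to peaks with a start site within 1 kb, the shares were 27.9% (24.1 to 31.9%) and 14.8% (12.7 to 17.0%). Restricted to peaks of 1000 to 2200 bp, they were 186 of 688 and 117 of 518, and here the exact 95% intervals overlapped. No test was made on motif shares, and a match is a run of letters and not a bound site.

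Of the 8 peaks at germline genes, 7 held an E-box in the central 1 kb. The sequences above show the E-box nearest the start of each, which at Sycp2 lay in the peak but outside its central 1 kb. The E-box nearest the start was 6 bp upstream at Tdrd1, 15 bp upstream at Hormad1 and 72 bp upstream at Slc25a31. It was 59 bp downstream at Syce2, 99 bp downstream at Stag3, 138 bp downstream at Piwil2 and 360 bp upstream at Sycp2. Hormad1 had a second E-box further upstream, with an E2F-type match (GGCGGGA) 90 bp and NRF1-type matches (GCATGCGC) 27 bp from the start. Smc1b had none of these 3 motifs anywhere in its 1800 bp peak. E-boxes were not counted at the germline genes in other Ring1b peaks. Among the PRC1 genes, the E-box was 7 bp upstream of the start at Bcorl1, 382 bp upstream at E2f6 and 1037 bp downstream at Mga.

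The other motifs are given in the same way. GGCGGGA occurred in 37.3% of Ring1b-only peaks and 39.6% of the others, both under the 48.8% of start sites with a CpG island. The ETS-type motif CCGGAAG occurred in 14.4% against 10.9%, with 30.2% at start sites with a CpG island. Among peaks of 1000 to 2200 bp its shares were 16.7% (14.0 to 19.7%) and 10.0% (7.59 to 13.0%), and these intervals did not overlap. GCATGCGC occurred in 4.69% against 2.66%, and the start sites with a CpG island had 8.38%. Those windows were centred on starts and picked for a CpG island, while peak windows were centred on peaks, so the shares are not matched. In Ring1b-only peaks with a start site within 1 kb, GGCGGGA occurred in 42.5%, CCGGAAG in 13.7% and GCATGCGC in 3.93%. In the other peaks with one, the shares were 41.3%, 10.8% and 2.21%. The cyclic AMP response motif TGACGTCA, also a palindrome, occurred in 1.93% against 0.731%, and the YY1-type motif AAGATGGC in 3.49% against 2.33%. CCAAT occurred in 55.8% against 53.1%, GGGCGG in 81.1% against 80.1% and CGCG in 94.9% against 92.4%. Within the others GGGCGG ran from 67.1% with all 4 lists to 86.6% with H3K27me3 only, and CGCG from 80.3% to 97.4%. All motifs were read on both strands. GGCGGGA can share letters with GGGCGG, and GCATGCGC with CGCG, so these counts are not separate.

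**Figure D3:**
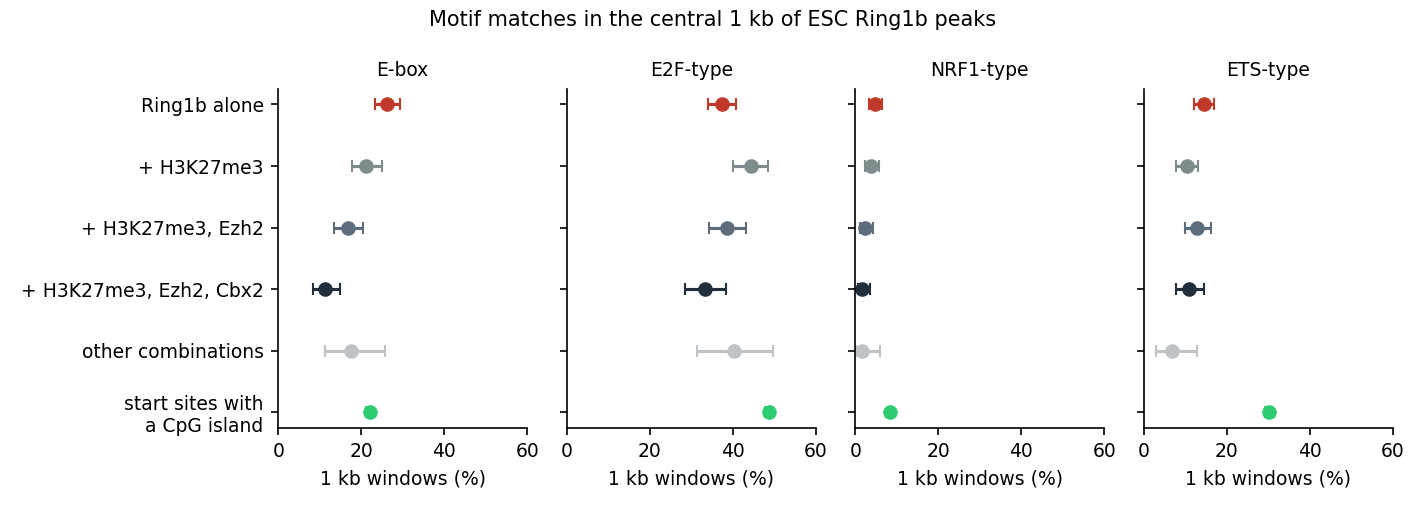
Share (%) of central 1 kb windows with a match to 4 motifs, for ESC Ring1b peaks by overlap class and for 1 kb windows around protein-coding start sites with a CpG island (green), with bars for exact 95% intervals. The E-box share is 26.2% in Ring1b-only peaks and 11.3% in peaks with all 4 lists, while for the other 3 motifs every class of peak lies below the start sites with a CpG island.

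Few Ring1b-only peaks had a Polycomb peak in NSCs. An NSC Ring1b peak overlapped 105 (12.6%, 10.5 to 15.1%), against 352 of the other 1504 (23.4%, 21.3 to 25.6%) and 19.6% of all ESC Ring1b peaks, a difference of -10.8 points (adjusted p = 1.98e-10, Fisher's exact test). Of the peaks with all 4 lists, 53.1% (47.9 to 58.3%) had an NSC Ring1b peak. The share was 12.1% with H3K27me3 only and 12.2% with H3K27me3 and Ezh2. Ring1b-only peaks did not pass the test against either class (adjusted p = 0.802 and 0.861), nor against all others without the all-list class, which had 13.7% (adjusted p = 0.544, all by Fisher's exact test). Among peaks of 1000 to 2200 bp the share was 11.3% in Ring1b-only peaks and 9.65% in the others (adjusted p = 0.395, Fisher's exact test). Among wider peaks it was 18.9% against 30.6%, a difference of -11.7 points (adjusted p = 0.00413, Fisher's exact test). These wider peaks were not matched in width, since 24 of 143 Ring1b-only peaks and 457 of 986 others reached 4 kb. At 2400 to 3800 bp the shares were 16.0% and 15.1%. At 4 kb and over they were 33.3% (15.6 to 55.3%) and 48.6% (43.9 to 53.3%), and these intervals overlapped.

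NSC H3K27me3 separated the classes in another way. It overlapped 83 Ring1b-only peaks (9.99%, 8.03 to 12.2%) against 517 others (34.4%, 32.0 to 36.8%) and 25.7% of all, a difference of -24.4 points (adjusted p = 1.72e-41, Fisher's exact test). In the other classes the share was 17.8% with ESC H3K27me3 only, 33.8% with Ezh2 as well, and 61.2% with all 4 lists. This difference kept its direction and stayed past the threshold under every alternative tried, but not its size. It was -7.78 points against peaks with H3K27me3 only (adjusted p = 8e-05) and -5.90 points among peaks of 1000 to 2200 bp, with 8.58% against 14.5% (adjusted p = 0.00316, both by Fisher's exact test). As a share of the NSC lists, 104 of 1389 NSC Ring1b peaks (7.49%) and 82 of 1647 NSC H3K27me3 peaks (4.98%) touched a Ring1b-only peak.

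**Figure D4:**
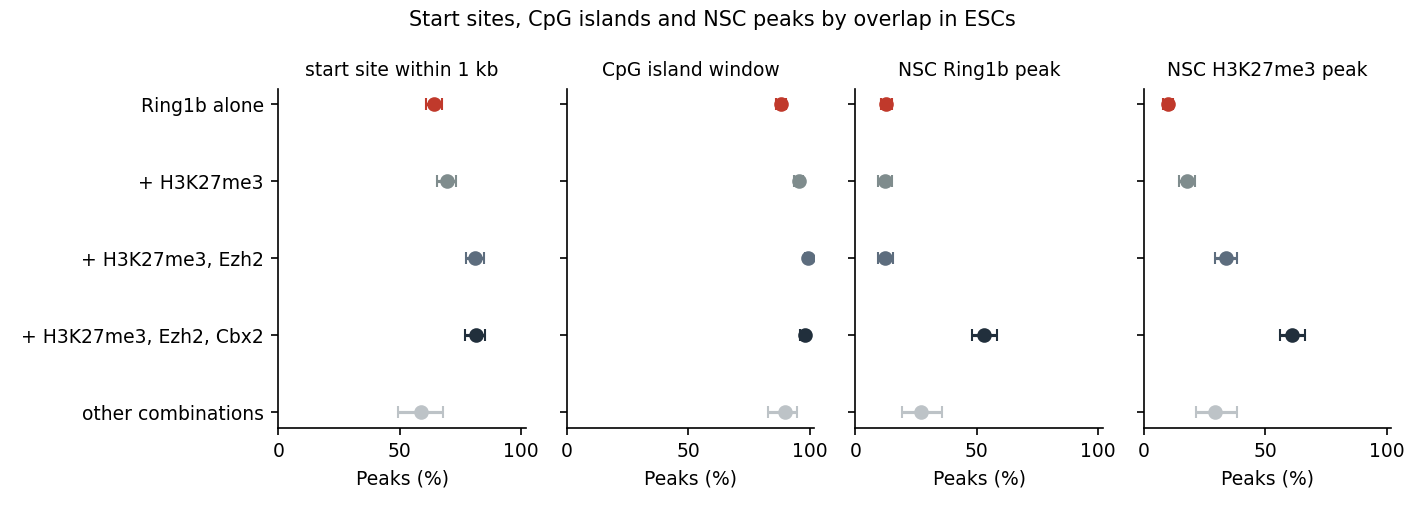
Share (%) of ESC Ring1b peaks in each overlap class with a protein-coding start site within 1 kb, a CpG island window, an NSC Ring1b peak or an NSC H3K27me3 peak, with bars for exact 95% intervals (counting error only). For NSC Ring1b the first 3 classes sit at 12.1 to 12.6% and the all-list class at 53.1%, while for NSC H3K27me3 the same 4 classes stand apart, from 9.99 to 61.2%.

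In all, 673 Ring1b-only peaks (81.0%) had neither NSC peak, 75 (9.03%) had Ring1b alone, 53 (6.38%) H3K27me3 alone and 30 (3.61%) both. Both were present at 16.2% of the other ESC Ring1b peaks. The overlap differed by width. For NSC Ring1b it was 8.63% (4.54 to 14.6%) at 1000 bp and 33.3% (15.6 to 55.3%) at 4 kb and over, and for NSC H3K27me3 it was 6.47% (9 peaks) and 29.2% (12.6 to 51.1%). The NSC Ring1b peaks on Ring1b-only peaks had a median width of 1600 bp, against 1400 bp for the whole NSC Ring1b list, and 18 of the 105 were at the 1000 bp floor. The 75 with NSC Ring1b alone had a median CpG ratio of 0.722, and the 673 with neither had 0.659. Of the 446 genes with a start in a Ring1b-only peak, 51 (11.4%) had an NSC Ring1b peak at the start and 28 (6.28%) an NSC H3K27me3 peak. Over all protein-coding genes these shares were 1.74% and 1.77%, and over the 1117 genes with a start in other ESC Ring1b peaks alone 18.7% and 25.1%.

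**Figure D5:**
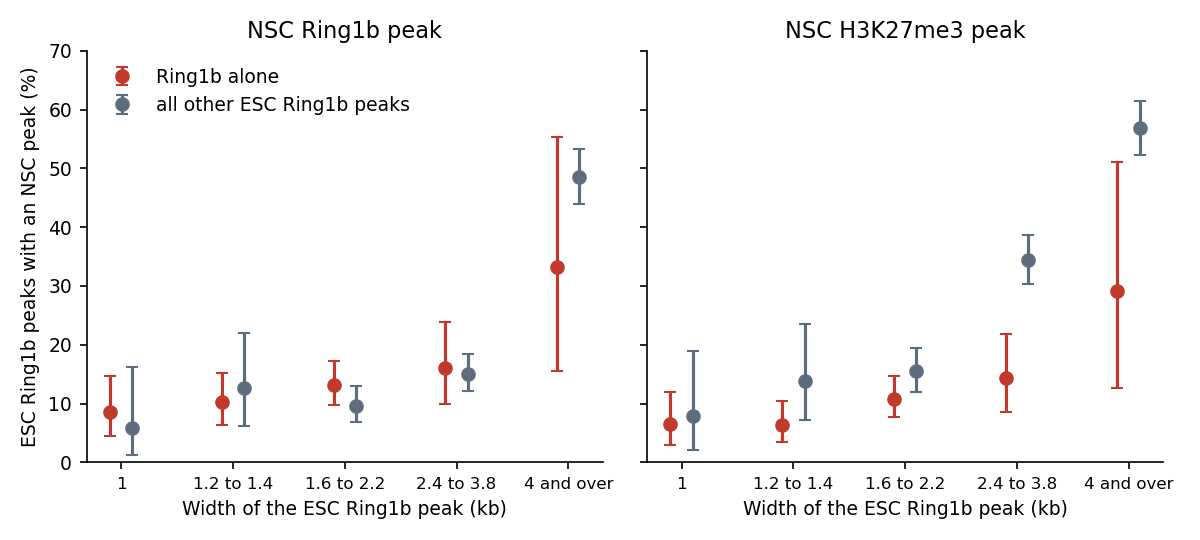
Share (%) of ESC Ring1b peaks with an NSC Ring1b (left) or NSC H3K27me3 (right) peak by width of the ESC peak (kb), for Ring1b-only peaks (red) and all other ESC Ring1b peaks (grey), with bars for exact 95% intervals. In the left panel the colours overlap in every width class, and in the right panel the widest classes are apart, with 14.3% against 34.4% at 2.4 to 3.8 kb and 29.2% against 56.9% at 4 kb and over.

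The 10 widest peaks with both NSC marks were led by Tcfap2c, where NSC Ring1b covered 4200 bp and NSC H3K27me3 6000 bp of the 7200 bp. At Eya4, a transcriptional cofactor gene, the NSC peaks covered 2400 and 1000 bp of 4000 bp. The peak 5616 bp from Pou4f1, a sensory neuron factor gene, was covered over its full 3400 bp by NSC Ring1b and over 3200 bp by H3K27me3. The others were near Gsx2, Kif13b, Sp6, Igf2bp3 and Rasgrf1 and at A730013G03Rik and Gprc5c, the last place being shared in width (2400 bp) with B4galnt1 and Ikzf3.

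Some narrow Ring1b-only peaks lay under much wider NSC domains. A pair of peaks at and near Igf2bp3, an RNA-binding protein gene, lay under a single NSC Ring1b peak of 15600 bp. The 1600 bp peak near Mnx1, a motor neuron homeobox gene, lay under a 13600 bp NSC Ring1b peak. The 1800 bp peak at Zdbf2 lay wholly under a 10200 bp NSC Ring1b peak and a 4200 bp NSC H3K27me3 peak, and a second peak 23839 bp from the Zdbf2 start under peaks of 3600 and 3800 bp. The 1000 bp peak near Neurog2, a proneural factor gene, lay within a 14800 bp NSC H3K27me3 peak and met no NSC Ring1b peak. At Lin28b, which blocks let-7 microRNA maturation, the 2000 bp peak was covered in full by both NSC lists. At Gas1, a hedgehog co-receptor gene, NSC Ring1b covered 3200 of 3400 bp and no NSC H3K27me3 peak was called. Pappa, Foxo6 and Cabp7 had the reverse, with NSC H3K27me3 peaks of 3000, 4200 and 3000 bp and no NSC Ring1b.

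Other Ring1b-only peaks with an NSC peak of at least 3 kb were at 4932442L08Rik (NSC Ring1b of 7400 bp) and Fam69c and near Sp6, En2, Rasgrf1, Ralyl, Pax1, Zfp322a, Zfp36l2, St8sia3, Gm6320, Ube2h and Nr2e1. Zdbf2 and Rasgrf1 are known as imprinted genes. Rasgrf1 had 2 Ring1b-only peaks, 26213 and 40413 bp from its start, with CpG ratios of 0.320 and 0.265, and only the nearer one met NSC peaks. The imprinted gene Phlda2, noticed after its values were seen, had a 2200 bp Ring1b-only peak at its start with an NSC H3K27me3 peak of 1200 bp.

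Distances from Ring1b-only peaks to the other ESC lists are given as a description. They use the same lists as the rule, and no background distance was measured. The nearest ESC Cbx2, Ezh2 or H3K27me3 peak was a median of 199400 bp away (quartiles 46900 and 476900 bp). It was within 1 kb for 19 (2.29%), within 5 kb for 73 (8.78%) and within 50 kb for 214 (25.8%). The neighbour within 5 kb was an H3K27me3 peak for 64, an Ezh2 peak for 27 and a Cbx2 peak for 21, with some counted under more than 1.

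The 73 with a neighbour within 5 kb had other features than the remaining 758. A start site lay within 1 kb of 28.8% of them against 67.7%, and their centres were outside protein-coding genes in 52.1% against 29.2%. A CpG island window was found in 69.9% against 90.2%. Their median CpG ratio was 0.543 against 0.674. These values are a description with no test. At the edge of the rule, 8 peaks touched an H3K27me3 peak end to end with no shared base, among them those near Wnt3 (1400 bp), at Cyp2r1 (1400 bp) and 11 bp from Accn4 (1200 bp). On the other side, 9 ESC Ring1b peaks were left out for an overlap of at most 200 bp, among them those at Parp8 (2600 bp), Adora2b (2200 bp) and Robo3 (1800 bp).

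Ring1b-only peaks were found on all 20 chromosomes with ESC Ring1b peaks. On chromosome X they were 37 of 69 Ring1b peaks (53.6%, 41.2 to 65.7%), and on the other chromosomes 25.6% (chromosome 8) to 41.4% (chromosome 10). The 37 on X included those at Bcorl1, Fgf13, Zfp711 and 4932442L08Rik. Their median width was 1800 bp and their median CpG ratio 0.620, against 1600 bp and 0.666 on the autosomes. No test was made between chromosomes, which were compared after their values were seen.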

How the data were processed

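ChIP-seq peak lists of Ring1b, Cbx2, Ezh2 and H3K27me3 in J1 ESCs and of Ring1b and H3K27me3 in NSCs were used as deposited, 1 library each. The authors aligned paired-end reads to mm9 (the methods name Bowtie, the submitters' processing notes BWA), tested 1 kb windows against input with a negative binomial model whose size parameter was set by inspection, and merged enriched windows up to 1 kb apart. The deposited values are start and end positions only, with no score or count. Input samples and other lists were not used here. Overlap meant at least 1 shared bp. Start sites, exons and introns came from GENCODE M1 (NCBIM37), for protein-coding genes unless stated otherwise, and sequence from the mm9 genome. CpG island windows moved in steps of 50 bp. Shares have exact Clopper-Pearson 95% intervals, which cover counting error only. The 4 tested shares (start site, CpG island, NSC Ring1b, NSC H3K27me3) used two-sided Fisher's exact tests with Benjamini-Hochberg adjustment (Python 3.11.15, SciPy 1.17.1), checked on simulated data. Alternatives are described under the dependence on processing. Named genes were list genes at a Ring1b-only peak, those at the widest, distal and extreme CpG peaks, at the edges of the rule, and at peaks with both NSC marks or an NSC peak of at least 3 kb, other genes being marked as noticed later. Members, gene lists and motifs were chosen with earlier results of these data known. One gene that this rule names is not reported here.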

Additional observations from a re-analysis of the deposited data

How the results depend on the processing

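No paired analysis was possible because each target has 1 library per cell type, and for the same reason no replicate could be left out. Of 74 alternative values, 63 were scored as unchanged. A difference in shares had to keep its direction and its side of the threshold. A median had to stay within the interval of the main median, taken over peaks of 1 library. A member count had only to stay within a set factor of the main count. The share with an NSC Ring1b peak changed most. Its difference from the compared peaks was -10.8 points against all others, +0.547 against peaks with H3K27me3 only, +1.68 among peaks of 1000 to 2200 bp and -11.7 among wider ones, and, in comparisons added after seeing the data, +0.456 against peaks with Ezh2 and H3K27me3 and -1.05 against all others without the all-list class. The wider peaks were not matched in width, since 24 of 143 Ring1b-only peaks and 457 of 986 others reached 4 kb. The CpG island difference became +3.82 points in the central 1 kb. The start site difference against peaks with H3K27me3 only was -5.34 points and missed the threshold. With peaks of at least 2 kb only, 282 Ring1b-only peaks were left, and the medians became 2400 bp for width and 58.0% for GC content. In the central 1 kb the median GC content was 61.8% and the CpG ratio 0.722. The NSC H3K27me3 difference of -24.4 points passed under all alternatives, but was -5.90 among peaks of 1000 to 2200 bp and -7.78 against peaks with H3K27me3 only. Counting an overlap only from 50% of the shorter interval gave 846 members, and asking for no other list within 5 kb gave 758. The lists hold no scores, so a stricter peak threshold could not be tried, depth is unknown and peaks just missed by the caller cannot be seen.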
